A study of Rattus norvegicus with 4 samples.

Results

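The genes described here make, import, store and export cholesterol. Members were chosen by name and function, with earlier results of these data known. Of 31 genes listed, 30 had a row carrying their symbol alone on the array, and 14506 genes were tested in all. Hmgcs1, which makes the HMG-CoA from which the pathway starts, was not analysed here. The 30 comprise 6 enzymes of the mevalonate segment, 11 enzymes of the sterol segment, Ggps1 of the isoprenoid branch, 4 genes of SREBP control, the carrier Stard4, the receptor Scarb1, the esterifying enzyme Soat1 and 5 genes of efflux and its control.

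Expression was measured in fat from behind the peritoneum (retroperitoneal adipose tissue) of male WNIN/Ob rats aged 4 months. The groups were 2 lean and 2 obese rats of this strain, all untreated and on stock diet, with 1 Affymetrix Rat Gene ST array for each rat. The labels name the phenotypes but not the genotype behind them. Values are log2 intensities and differences are obese minus lean, so that a difference of 1 is a doubling.

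Animal cells build cholesterol from acetyl-CoA. The mevalonate segment makes isoprenoid units, and the sterol segment joins them into squalene, closes the ring and trims lanosterol to cholesterol. The transcription factor SREBP-2, escorted by Scap and held back in the endoplasmic reticulum by the Insig proteins, raises transcription of these enzymes when membrane cholesterol is low. Surplus cholesterol is esterified by Soat1, while oxysterols activate the nuclear receptors LXR-alpha and LXR-beta, which raise the exporters Abca1 and Abcg1 and the lipoprotein component Apoe. Fat tissue holds a large pool of cholesterol, much of it free sterol in the lipid droplets of adipocytes, and makes little of it compared with liver.

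Lean rat 1 stood apart from the other arrays in skeletal muscle genes. The 13 muscle markers with a row had a summed intensity of 40295 in lean rat 1, 770.2 in lean rat 2, and 801.3 and 586.0 in the obese rats. Acta1, the skeletal muscle actin gene, was at 12.88 in lean rat 1 and between 6.56 and 7.67 in the other rats. The adipocyte markers Adipoq and Plin1 differed by 0.15 and 0.26 between the groups. Of the same list Lep differed by 1.56 and Cfd by -0.83, with none of the 10 past the threshold, and the 10 markers summed to 16532 and 16041 in the lean rats and 18543 and 21976 in the obese rats. Of 15 macrophage markers 5 rose and 10 did not pass, against 0.772% of all genes tested that rose. Their median difference was 1.61, and their summed intensity was 4404 and 4171 in the lean rats against 16717 and 10591 in the obese rats. Of these, the defining markers Cd68 and Adgre1 had differences of 2.04 and 0.69 (adjusted p = 0.075 and 0.262), while Cd163, Cd14, C1qa and C1qb were at -0.05, 0.15, 0.27 and 0.49 with overlapping groups. The part of these cell types in the results below was not tested, and in whole tissue a change in cell numbers and a change in RNA per cell cannot be told apart.

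In the obese rats 3 of the 30 cholesterol genes rose and none fell, while 27 did not reach an adjusted p under 0.05 by limma's test. Over all genes tested 0.841% passed, 0.772% as higher and 0.0689% as lower. At an unadjusted p under 0.05, 19 of the 30 were higher, against 9.93% of all genes. The 3 were Sqle, Cyp51 and Soat1, the first pair in sterol synthesis and the last in storage. All 30 differences were above 0, against 50.1% of all genes tested. The groups did not overlap, with the obese rats higher, in 28 of the 30, which held for 26.4% of all genes, and the exceptions were Nr1h3 and Apoe. Differences ran from 0.21 for Scap to 2.02 for Nsdhl with a median of 0.88, and 14 of 30 exceeded 1, which 4.62% of all genes did. With 2 rats in each group, an exact two-sided permutation test of 1 gene cannot give a p below 0.333, so each call rests on the spread limma shares among genes. Without lean rat 1, the array with the muscle genes, the 17 enzymes of the mevalonate and sterol segments had a median difference of 1.31. It was 1.16 with all rats and 1.07 to 1.33 when any other single rat was left out. With quantile normalization between arrays none of the 30 passed limma's test, Sqle, Soat1 and Cyp51 being at adjusted p of 0.051, 0.054 and 0.096, and 16 had an unadjusted p under 0.05.

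**Figure D1:**
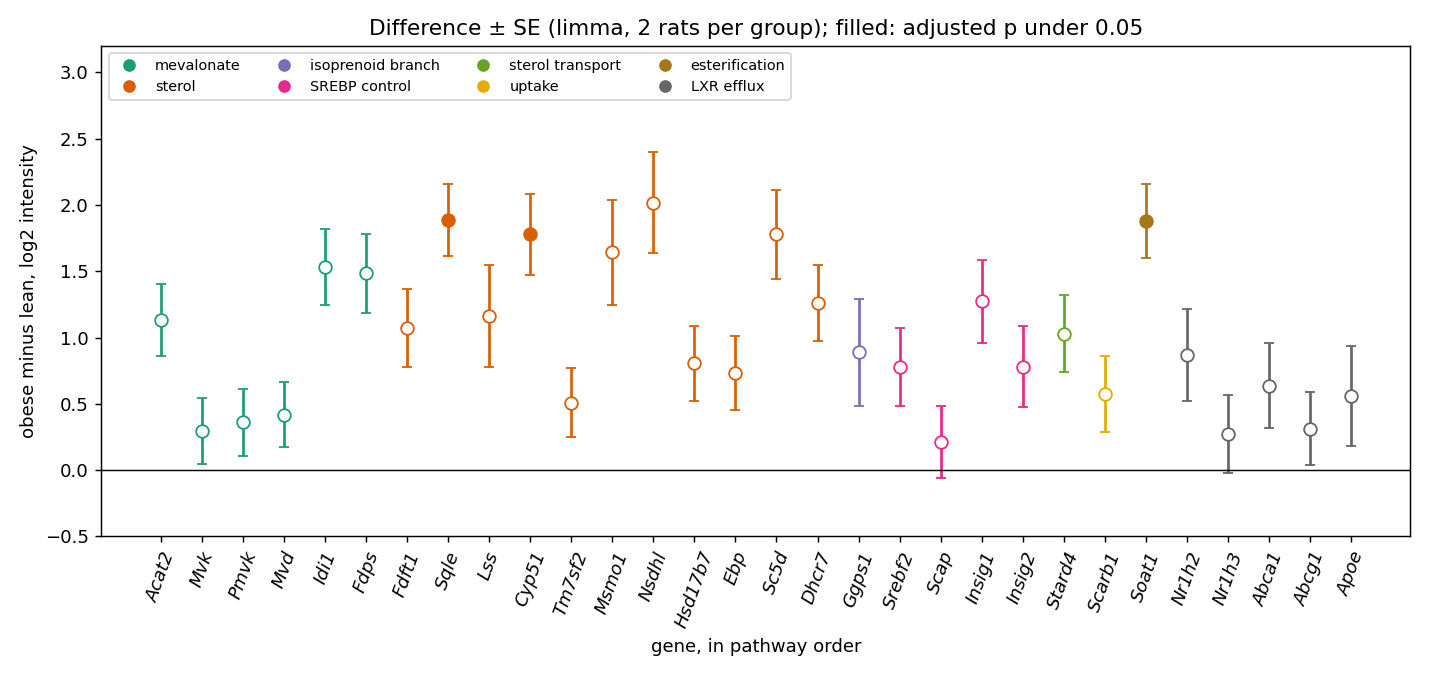
Obese minus lean difference of log2 intensity (vertical axis) for the 30 genes in pathway order (horizontal axis), coloured by arm, with bars of 1 SE from limma over 2 rats per group; filled points passed an adjusted p under 0.05. Sqle, Cyp51 and Soat1 are the filled points, and the mevalonate kinases Mvk and Pmvk and the decarboxylase Mvd lie lowest among the enzymes, between 0.29 and 0.42.

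The mevalonate segment split into small and large differences. Its 6 measured enzymes had a median of 0.77 and none passed. Idi1, the isomerase that makes the reactive isoprenoid unit, was at 6.09 and 6.54 in the lean rats and at 7.91 and 7.79 in the obese rats. The groups did not overlap, with a gap of 1.25 between their nearest rats, and the difference was 1.53 ± 0.29 (SE, n = 2 per group, adjusted p = 0.066). Fdps, which joins isoprenoid units into farnesyl diphosphate, was at 6.67 and 6.94 in the lean rats and 8.48 and 8.10 in the obese rats, a difference of 1.49 ± 0.30 (adjusted p = 0.076). Acat2, the cytosolic thiolase that condenses acetyl-CoA at the head of the pathway, was at 6.52 and 6.40 in the lean and 7.69 and 7.49 in the obese rats, a difference of 1.13 ± 0.27 (adjusted p = 0.118).

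The enzymes between these, which phosphorylate and decarboxylate mevalonate, differed less. The kinase Mvk was at 6.10 and 6.26 in the lean rats and 6.54 and 6.41 in the obese rats (difference 0.29 ± 0.25, adjusted p = 0.619). The second kinase, Pmvk, differed by 0.36 ± 0.26 and the decarboxylase Mvd by 0.42 ± 0.25 (adjusted p = 0.541 and 0.460). In each of these genes the groups did not overlap, but the nearest rats were only 0.15, 0.16 and 0.31 apart. Whether the difference of Mvk, Pmvk or Mvd is smaller than that of Idi1, Fdps or Acat2 was not tested.

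The sterol segment held the larger differences: 2 of its 11 enzymes rose, 9 did not pass, the median was 1.26 and 8 of 11 exceeded 1. Sqle, the squalene epoxidase and an oxygen-dependent control point of the pathway, was at 5.89 and 5.98 in the lean rats and at 7.97 and 7.66 in the obese rats. The groups were 1.68 apart at their nearest rats, while rats of the same group differed by 0.09 and 0.31. Sqle rose by 1.88 ± 0.27, a 3.69-fold higher intensity (adjusted p = 0.028). Cyp51, the lanosterol demethylase, was at 7.34 and 7.73 in the lean rats and at 9.29 and 9.33 in the obese rats. It rose by 1.78 ± 0.30 or 3.43-fold, with an adjusted p of 0.048 close to the threshold.

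Nsdhl, which removes the methyl groups at the fourth carbon of the sterol ring together with Msmo1 and Hsd17b7, had the largest difference of the 30 genes but did not pass. It was at 7.44 and 6.77 in the lean rats and 8.73 and 9.51 in the obese rats, and the obese rats were 0.78 apart. The difference was 2.02 ± 0.38 (adjusted p = 0.067), the 80th largest of all genes tested. Msmo1 was at 7.59 and 7.23 in the lean rats and 9.57 and 8.53 in the obese rats, so that obese rat 1 exceeded obese rat 2 by 1.04. Its difference of 1.64 ± 0.40 did not pass (adjusted p = 0.123). It was 2.16 without obese rat 2, the lower of the obese rats, and 1.12 without obese rat 1. Hsd17b7, the ketosteroid reductase of the same step, differed by 0.81 ± 0.28 (adjusted p = 0.256).

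Sc5d, the desaturase of the late pathway, was at 6.73 and 5.93 in the lean rats and 8.03 and 8.19 in the obese rats, a difference of 1.78 ± 0.34 (adjusted p = 0.066). Its lean rats differed more than its obese rats, and the difference was 1.38 without lean rat 2 and 2.18 without lean rat 1. Dhcr7, which makes cholesterol from its last precursor, was at 7.12 and 6.85 in the lean rats and 8.34 and 8.15 in the obese rats (difference 1.26 ± 0.29, adjusted p = 0.105). Lss, which closes the ring to lanosterol, was at 7.30 and 6.28 in the lean rats, so the lean rats were 1.03 apart, and at 8.12 and 7.79 in the obese rats. The difference of Lss was 1.16 ± 0.38 and did not pass (adjusted p = 0.229). It was 0.65 without lean rat 2 but 1.68 without lean rat 1. Fdft1, the squalene synthase, differed by 1.07 ± 0.30, the isomerase Ebp by 0.73 ± 0.28 and the sterol reductase Tm7sf2 by 0.51 ± 0.26, the least of the segment (adjusted p = 0.170, 0.278 and 0.396).

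**Figure D2:**
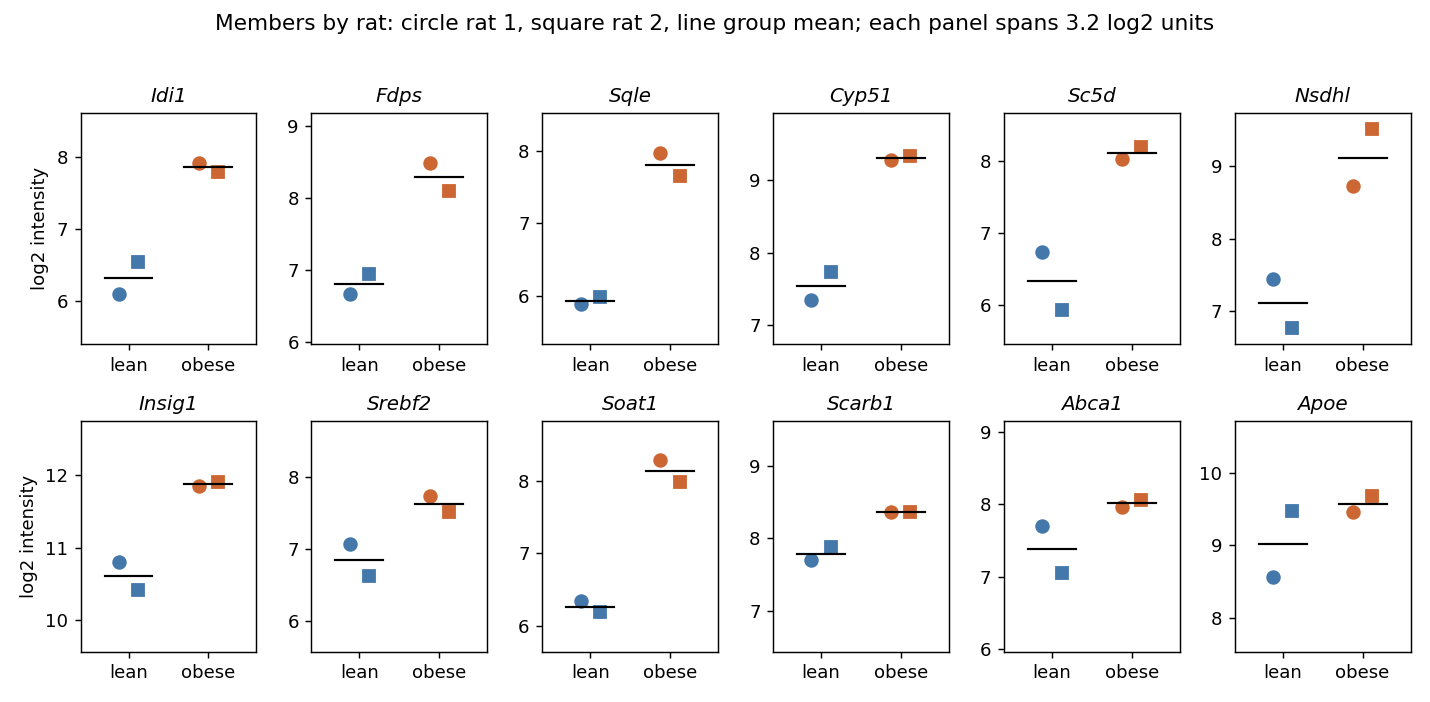
Log2 intensity (vertical axis) of 12 of the 30 genes in each rat, lean in blue and obese in orange, with circles for rat 1, squares for rat 2 and lines for group means; every panel spans the same number of log2 units. The groups lie apart in Sqle, Cyp51 and Soat1 with small spread within them, while in Apoe lean rat 2, at 9.47, lies among the obese rats.

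Ggps1, which directs farnesyl diphosphate towards protein prenylation, was at 5.90 in lean rat 1, 4.57 in lean rat 2, and 6.19 and 6.05 in the obese rats. Only lean rat 2 was clearly low, lean rat 1 lying 0.15 below the nearest obese rat. Lean rat 2 was also below 5.24, the 95th percentile of 187 olfactory and vomeronasal receptor genes on its array. That percentile is a guide to background. The difference of 0.89 ± 0.41 did not pass, and was 0.22 without lean rat 2 and 1.55 without lean rat 1.

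None of the 4 genes of SREBP control passed, and their median was 0.78. Insig1, a retention protein that is itself a transcriptional target of SREBP, was at 10.80 and 10.41 in the lean rats and 11.85 and 11.91 in the obese rats. Its groups were 1.05 apart, with a difference of 1.27 ± 0.31 (adjusted p = 0.128). Insig1 was the only one of the 30 genes with more than 1 row. Its other row was at 9.70 and 9.65 in the lean rats and 11.31 and 10.93 in the obese rats, a difference of 1.44 in the same direction. Insig2, the second retention protein, was at 6.67 and 6.08 in the lean rats and 7.30 and 7.004 in the obese rats (difference 0.78 ± 0.31, adjusted p = 0.290). Srebf2, which encodes SREBP-2, was at 7.07 and 6.62 in the lean rats and 7.74 and 7.51 in the obese rats (difference 0.78 ± 0.30, adjusted p = 0.276). Scap, the escort protein, had the smallest difference of the 30 genes, 0.21 ± 0.27, with lean rat 2 at 7.07 and obese rat 2 at 7.08. Stard4, a soluble sterol carrier that is another SREBP target, was at 5.31 and 5.59 in the lean rats and 6.78 and 6.17 in the obese rats, a difference of 1.03 ± 0.29 (adjusted p = 0.177).

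Because all synthesis genes had differences above 0, the 250 bases before each RefSeq gene start (build GRCr8) were searched on both strands. The search was for letters bound by SREBP or by factors that act with it. The motifs were TCACNCCAC, a sterol regulatory element, CCAAT, the box bound by NF-Y, and GGGCGG, the box bound by Sp1, each counted separately so that occurrences could overlap. Of the 31 listed genes, 25 had a promoter entry, and 23 of the measured genes had exactly 1. CCAAT was present in 11 of 14 synthesis genes and in 3 of 4 SREBP control genes, against 35.5% of 11520 tested genes with a single entry and 34.0% of all entries. It was present in 0 of 3 efflux genes with a single entry (Nr1h2, Nr1h3 and Abca1), while Apoe, another efflux gene, has 3 entries, of which 1 holds it. GGGCGG was in 12 of 14 synthesis genes, 3 of 4 SREBP control genes and 1 of 3 efflux genes with a single entry. It was in 47.1% of the tested genes with a single entry and 30.5% of all entries. TCACNCCAC was in none of the 23, and in 0.972% of the tested genes and 0.974% of all entries. At so low a share, its absence from 23 windows does not set these genes apart from the others. Only these exact letters were searched, so variant elements would be missed. These shares are descriptions, with no test, and a match is not evidence of binding.

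The promoter windows of 5 genes show this range. Cyp51 and Soat1 are the risen genes with an entry. Nsdhl and Mvk each hold 5 CCAAT boxes but had the largest and the smallest difference of the synthesis genes, and Abca1 holds none. Each is printed 5′ to 3′ on the strand of its gene, with CCAAT and GGGCGG or their reverse complements in capitals.
Cyp51, chr4:30991443-30991692, plus strand: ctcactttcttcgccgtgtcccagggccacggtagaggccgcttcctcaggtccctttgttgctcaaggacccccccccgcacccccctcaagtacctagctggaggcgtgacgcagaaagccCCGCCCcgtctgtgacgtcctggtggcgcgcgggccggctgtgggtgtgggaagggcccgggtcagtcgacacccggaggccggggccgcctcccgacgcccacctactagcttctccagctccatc
Soat1, chr13:71147673-71147922, minus strand: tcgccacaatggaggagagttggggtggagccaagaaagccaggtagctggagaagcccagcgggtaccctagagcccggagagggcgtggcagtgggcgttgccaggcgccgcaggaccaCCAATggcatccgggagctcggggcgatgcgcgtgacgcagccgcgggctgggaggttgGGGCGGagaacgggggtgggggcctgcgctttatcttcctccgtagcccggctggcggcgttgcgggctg
Nsdhl, chrX:155817110-155817359, plus strand: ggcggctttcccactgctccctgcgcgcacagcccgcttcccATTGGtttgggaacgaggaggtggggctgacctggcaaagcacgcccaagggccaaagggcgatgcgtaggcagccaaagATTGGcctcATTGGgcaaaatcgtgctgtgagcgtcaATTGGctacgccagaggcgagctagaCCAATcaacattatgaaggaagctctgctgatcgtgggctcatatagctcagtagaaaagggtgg
Mvk, chr12:47819504-47819753, minus strand: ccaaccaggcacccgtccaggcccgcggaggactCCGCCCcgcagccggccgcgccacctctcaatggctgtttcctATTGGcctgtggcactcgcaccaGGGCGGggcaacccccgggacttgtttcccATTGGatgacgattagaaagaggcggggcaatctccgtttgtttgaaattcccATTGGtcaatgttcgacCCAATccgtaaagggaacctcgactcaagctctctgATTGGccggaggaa
Abca1, chr5:72596474-72596723, minus strand: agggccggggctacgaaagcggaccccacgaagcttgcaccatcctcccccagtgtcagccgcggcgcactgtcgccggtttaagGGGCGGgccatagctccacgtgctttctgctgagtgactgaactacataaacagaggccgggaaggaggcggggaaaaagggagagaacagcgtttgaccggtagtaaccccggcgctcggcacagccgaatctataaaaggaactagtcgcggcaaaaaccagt
In Cyp51 the search found 1 GGGCGG and no CCAAT, and in Soat1 1 of each. In Nsdhl it found 5 CCAAT and no GGGCGG, in Mvk 5 CCAAT and 2 GGGCGG, and in Abca1 1 GGGCGG.

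Storage was represented by Soat1, which esterifies free cholesterol for deposit in lipid droplets and is abundant in macrophages and adrenal cortex. It was at 6.34 and 6.18 in the lean rats and at 8.30 and 7.98 in the obese rats. The obese rats exceeded both lean rats by at least 1.64, and Soat1 rose by 1.88 ± 0.28, or 3.68-fold (adjusted p = 0.030). With a rat left out, it differed by 1.72 to 2.03. The adrenal cortex enzymes Cyp11a1 and Cyp11b1 were below the 95th percentile of 187 olfactory and vomeronasal receptor genes, a guide to background, on each array. Cyp11a1 was at 4.00 and 4.27 in the lean rats and 4.11 and 4.05 in the obese rats, and Cyp11b1 at 2.91 and 3.17 against 3.03 and 3.06. The 8 adrenal markers with a row summed to 1794 and 1051 in the lean and 689.2 and 1358 in the obese rats. These sums include Mc2r, the corticotropin receptor gene, which rodent adipocytes also express, and which contributed the most on each array. Mc2r was at 10.66 and 9.69 in the lean rats and 8.41 and 9.999 in the obese rats, and Fdx1, an electron carrier of many tissues, between 6.24 and 6.62. Of them Star, which carries cholesterol into mitochondria, rose (2.04, adjusted p = 0.025), and the other 7 did not pass.

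Scarb1, the receptor through which cells take cholesterol from high-density lipoprotein, was at 7.70 and 7.88 in the lean rats and 8.37 and 8.37 in the obese rats. The groups were 0.48 apart, but the difference of 0.58 ± 0.29 did not pass (adjusted p = 0.380).

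The efflux arm had the smallest median of the arms with several genes, 0.56, and none of its 5 genes passed or exceeded 1. Abca1, which loads cholesterol on apolipoproteins, was at 7.71 and 7.05 in the lean rats and 7.97 and 8.07 in the obese rats. The groups were 0.26 apart, less than the 0.65 between the lean rats, and the difference was 0.64 ± 0.32 (adjusted p = 0.387). Abcg1, which passes sterol to lipoprotein particles, was at 6.90 and 6.88 in the lean rats and 7.39 and 7.02 in the obese rats (difference 0.31 ± 0.28, adjusted p = 0.634). Apoe, the apolipoprotein secreted by macrophages and adipocytes, was at 8.57 and 9.47 in the lean rats and 9.47 and 9.69 in the obese rats, so that lean rat 2 and obese rat 1 did not differ to 2 decimals. Its difference of 0.56 ± 0.38 did not pass and was 0.10 without lean rat 1 and 1.01 without lean rat 2.

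The LXR genes themselves differed unequally in value. Nr1h2, which encodes LXR-beta, was at 6.46 and 6.06 in the lean rats and 7.55 and 6.70 in the obese rats, a difference of 0.87 ± 0.35 (adjusted p = 0.295) that was 0.44 without obese rat 1. Nr1h3, which encodes LXR-alpha, was at 7.55 and 7.26 in the lean rats and 7.85 and 7.51 in the obese rats, with lean rat 1 above obese rat 2. Its difference was 0.27 ± 0.29 (adjusted p = 0.705). Neither receptor passed, and the difference between them was not tested.

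Side by side, the medians were 1.16 for the 17 synthesis enzymes, 0.78 for SREBP control and 0.56 for efflux, with Soat1 at 1.88 and Scarb1 at 0.58, and the median over all genes tested was 0.00047. The order is a description, since no test compared the arms. Per rat, the synthesis enzymes lay a median of 1.33 and 1.12 above the lean mean in obese rats 1 and 2, and lean rats 1 and 2 were at 0.097 and -0.097 relative to it. For the efflux genes these values were 0.50 and 0.44 in the obese rats, and 0.15 and -0.15 in the lean rats. The median distance between the lean rats was 0.34 for the synthesis enzymes and 0.40 for the efflux genes, and between the obese rats 0.22 and 0.34. Macrophage markers were 2.00 and 1.22 above the lean mean in obese rats 1 and 2. Obese rat 1 was also above obese rat 2 in 23 of the 30 cholesterol genes and in 13 of the 15 macrophage markers. That held for 45.5% of all genes tested. Lean rat 1 was above lean rat 2 in 19 of the 30 and in 6 of the 15, against 6051 of all 14506 genes. The part of macrophage content in these values was not tested.

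**Figure D3:**
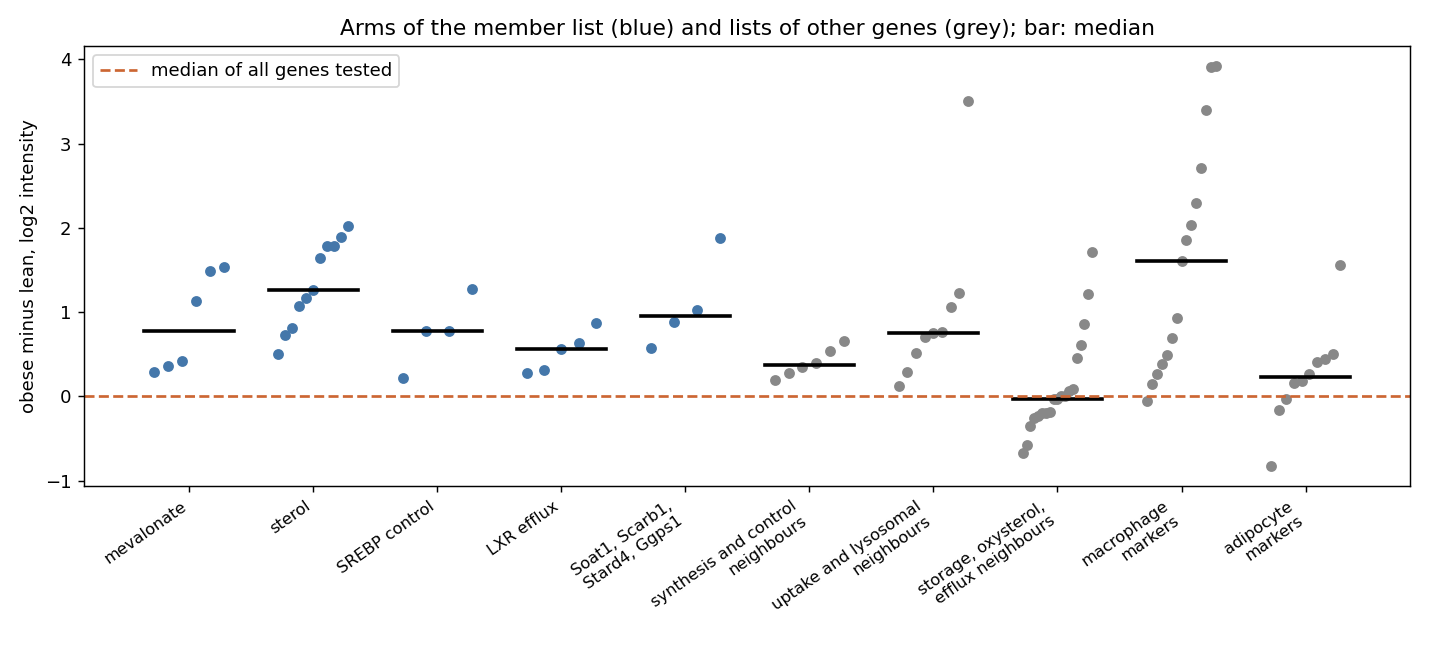
Obese minus lean difference of log2 intensity (vertical axis) for each gene of the arms (blue) and of lists of other genes (grey), with black bars for medians and a dashed line for the median of all genes tested. Every blue point lies above 0; the sterol segment has a median of 1.26 and the efflux arm 0.56, while the macrophage markers have 1.61 and the adipocyte markers 0.22.

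Of 44 other genes of cholesterol handling listed by function, 34 had a row, 1 rose and none fell, where 0.841% of all genes passed. The main low-density lipoprotein receptor was not analysed here, so uptake of this lipoprotein through it is not described. Lipa, the lysosomal acid lipase that frees cholesterol from lipoprotein esters, was at 7.999 and 6.79 in the lean rats and 11.33 and 10.46 in the obese rats. It rose by 3.50 ± 0.48 (adjusted p = 0.025), and differed by 2.90 to 4.11 with a rat left out. Among the 9 measured genes of uptake and lysosomal release all differences were above 0, with a median of 0.75, and for 8 of them the obese rats were higher without overlap, as for 26.4% of all genes. Npc1, which exports cholesterol from the lysosome, was at 6.96 and 6.31 in the lean rats and 7.95 and 7.78 in the obese rats (1.23 ± 0.32, adjusted p = 0.143). Without lean rat 1 Npc1 differed by 1.56, and without lean rat 2 by 0.90. Its soluble partner Npc2 was at 0.75 and the late endosomal sterol carrier Stard3 at 1.05. Stard3 was at 1.35 without lean rat 1 and at 0.76 without lean rat 2. The sorting receptor Sort1 was at 0.70, and none of these 3 passed with all rats. The remaining measured genes of this list were Cd36, Vldlr, Lrp1 and Mylip, at 0.76, 0.51, 0.29 and 0.12. None of them passed, and only in Mylip did the groups overlap.

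The 19 measured genes of storage, oxysterols and efflux outside the list had a median of -0.03, with 9 above 0, and none passed. Lpcat3, a phospholipid-remodelling target of LXR, was at 8.37 and 8.13 in the lean rats and 10.26 and 9.65 in the obese rats. Its difference of 1.71 ± 0.34 had an adjusted p of 0.073, and it passed when lean rat 1 (1.83, adjusted p = 0.044) or obese rat 2 (2.01, adjusted p = 0.016) was left out. Nceh1, which hydrolyses cholesterol esters, was at 4.94 and 4.81 in the lean rats and 6.49 and 5.70 in the obese rats. Its difference was 1.22 ± 0.30 (adjusted p = 0.131), and 1.61 without obese rat 2, the lower of the obese rats. Abcg4, a sterol exporter, was at 6.62 in lean rat 1, 5.14 in lean rat 2, and 5.14 and 5.27 in the obese rats, a difference of -0.68 ± 0.44 (adjusted p = 0.497). It was at -1.42 without lean rat 2 and at 0.067 without lean rat 1. In lean rat 2 both Nceh1 and Abcg4 were below the background guide of 5.24 on that array. The caveolar protein gene Cav1 was at 0.86 and the transporter Abca7 at 0.60. Ch25h, which makes the LXR ligand 25-hydroxycholesterol, was at 5.67 and 6.06 in the lean rats and 5.24 and 5.34 in the obese rats (-0.57 ± 0.25, adjusted p = 0.329). The bile acid enzyme Cyp7a1 lay between 2.55 and 3.18 on all arrays, near background. None of the 8 hepatocyte markers passed, and Alb among them was at 9.23 and 9.82 in the lean rats and 7.79 and 6.48 in the obese rats (adjusted p = 0.068).

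The 6 measured neighbours of synthesis and control had a median of 0.37 and none passed. They include Mbtps2 (0.53), a protease that releases SREBP from the membrane, and the ubiquitin ligase gene Rnf139 (0.39). The mitochondrial thiolase gene Acat1 was at 0.35, where its cytosolic counterpart Acat2 was at 1.13. Erlin1 and Erlin2, endoplasmic reticulum proteins that bind cholesterol, were at 0.65 and 0.27, and Erlin1 was at -0.04 without lean rat 2.

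**Figure D4:**
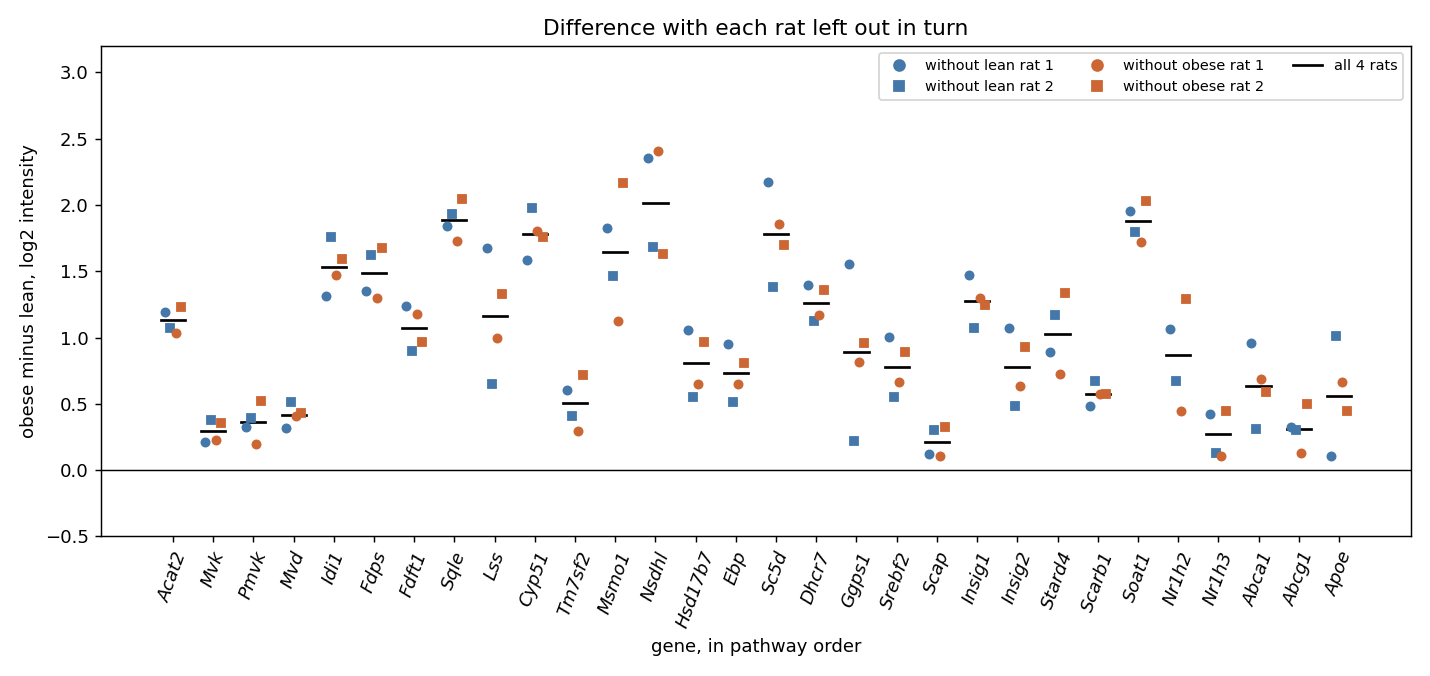
Obese minus lean difference of log2 intensity (vertical axis) for the 30 genes with all rats (black bars) and with each rat left out (blue for a lean rat, orange for an obese rat). Sqle ran from 1.73 to 2.04, Cyp51 from 1.58 to 1.97 and Soat1 from 1.72 to 2.03, while Ggps1 ran from 0.22 to 1.55 and Lss from 0.65 to 1.68.

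With each rat left out in turn, Sqle, Cyp51 and Soat1 differed by at least 1.73, 1.58 and 1.72. The 28 genes whose groups did not overlap must keep their sign in this check. The 2 others also stayed above 0, at 0.11 or more for Nr1h3 and at 0.10 or more for Apoe. The rat that mattered differed between genes: leaving out lean rat 2 lowered Lss, Ggps1, Sc5d and Abca1, and leaving out lean rat 1 lowered Apoe and Idi1. Lean rat 1 exceeded lean rat 2 in 9 of the 11 sterol enzymes but in 1 of the 6 mevalonate enzymes.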

How the data were processed

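Expression was measured on 1 array per rat. Per the labels' protocols RNA was extracted with Trizol from frozen fat and amplified for Affymetrix Rat Gene ST arrays. The authors deposited intensity values on a linear scale for 29214 rows, made by RMA according to the submitters' processing notes; for its software and the genome build, nothing is stated in the labels. RMA includes a quantile step that would reduce shifts common to most genes, but the deposited arrays were not equal in distribution: the interquartile range on the log2 scale was 2.63 and 2.24 in lean rats 1 and 2, and 2.77 and 2.76 in the obese rats. The median deposited intensity was 41.0 and 44.5 in the lean and 39.9 and 39.9 in the obese rats.

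Intensities were converted to log2 without a pseudocount. Rows with exactly 1 symbol in the platform annotation (15310) were kept, and the row with the highest mean for each gene. Older names were accepted for Msmo1 and Sc5d. The test was limma's, version 3.58.1 under R 4.3.3 (lmFit, eBayes with a mean-variance trend), adjusted by Benjamini-Hochberg over 14506 genes at a threshold of 0.05. The procedure was tested on simulated data. Promoters came from RefSeq tables of GRCr8. All members, and in each neighbour list the called genes and the 5 with the smallest p, were named. Adgre1, Cd68, Adipoq, Plin1, Acta1, Cyp11a1, Star and Alb were fixed as markers. Cyp11b1, Mc2r, Fdx1, Cyp7a1, Abcg4, Lep, Cfd, Cd163, Cd14, C1qa and C1qb were chosen after values were seen. So were Cd36, Vldlr, Lrp1, Mylip and the promoters printed. Members and lists were chosen with earlier results of these data known. Figures were drawn with matplotlib 3.10.9. Alternatives were other normalizations, variance models, filters, row choices, a block and each rat left out. That each sample is a separate rat comes from the titles.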

Additional observations from a re-analysis of the deposited data

How the results depend on the processing

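Of the 30 cholesterol genes, 3 passed with the settings of the report. None passed with quantile normalization, where limma's adjusted p was 0.051 for Sqle, 0.054 for Soat1 and 0.096 for Cyp51; 16 of the 30 then had an unadjusted p under 0.05, and 75 genes passed in all. The count was 7 with a robust variance model, 5 with array weights, 7 at a threshold of 0.10 and 5 to 11 with a rat left out. Over all genes tested, 262 (1.81%) passed with the robust variance model and 171 (1.18%) with array weights, against 122 (0.841%) with the settings of the report. The larger counts in these fits are therefore not particular to the cholesterol genes. Cyp51 also lost its call with median centring (adjusted p = 0.058), without the dimmest 25% of genes (0.058), over all rows of the table (0.070) and with log2(intensity + 16) (0.059). All 30 differences were above 0 in each of these settings. With the rat number as a replicate block 7 passed (327 genes in all). The deviations of lean rat 1 and obese rat 1 from their group means had r = 0.0203 across genes. With 1 such comparison, whether the number pairs the rats cannot be decided.

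Over the fits that omit a rat, the synthesis median lay between 1.07 and 1.33 and the efflux median between 0.31 and 0.50, and the efflux median was 0.38 with quantile normalization. The SREBP control median ran from 0.52 to 1.04. The count of called neighbours, examined under alternatives added after the data were seen, was 2 with a robust variance model, 2 with the replicate block, 2 at a threshold of 0.10 and 1 to 4 with a rat left out. Erlin1 changed sign without lean rat 2 (-0.042), and was at 1.35 without lean rat 1. Abcg4 changed sign without lean rat 1 (0.067), and was at -1.42 without lean rat 2. With 2 rats per group, 112 genes passed as higher although 670 had a difference over 1. Each fit with a rat left out has 1 rat in a group, so only the size of its differences is given. Without an obese rat the spread of each gene is replaced by the shared trend.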
